A study of Homo sapiens with 10 samples.

Results

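The results describe what 2 µM I-CBP112 did to gene expression in K562 cells, the mildest of 4 inhibitor treatments, and which genes were the most sensitive to it. K562 is an established human line of chronic myelogenous leukemia that carries the BCR-ABL fusion and has erythroid features. Treatment lasted 48 h, with I-CBP112 or CBP30 at 2 or 5 µM each or with the vehicle DMSO alone. Polyadenylated RNA was sequenced from 2 biological replicates of each condition. The comparison rests on 4 of the 10 samples, the 2 treated with 2 µM I-CBP112 and the 2 with DMSO. It covers 12392 of the 23284 genes in the table, those whose mean over the 10 samples reached 0.5 FPKM, leaving out small RNA genes. All samples are of this single cell line.

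I-CBP112 and CBP30 occupy the bromodomains of CREBBP and EP300, a pair of related lysine acetyltransferases that act as coactivators. A bromodomain is a pocket that binds acetylated lysine, and it helps to hold these enzymes on acetylated chromatin, where they acetylate histones at enhancers and promoters. In erythroid cells the transcription factors GATA1, KLF1, TAL1 and LMO2 work with such coactivators to drive the globin genes and the genes for heme and the red cell membrane. Each value is in FPKM, the fragments assigned to a gene relative to the length of its transcript and the size of the library. Differences are given as the log2 fold change of FPKM + 1 with its standard error, a scale on which low genes appear to change less than they did. Genes were called with limma at a Benjamini-Hochberg adjusted p under 0.05, from 1 fit of all 10 samples with n = 2 in each group.

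Erythroid genes were among the largest falls and histone genes among the largest rises, and promoters of both are shown so that their letters can be read beside the values. Each window is the 250 bases before a RefSeq transcription start, taken from RefSeq for GRCh38.p14 and placed on hg19 by an exact match. It is written 5′ to 3′ on the strand of the gene. Capitals mark GATAA (the core letters bound by GATA factors), CCAAT, the octamer ATTTGCAT, the E-box CACGTG and TATAAA on either strand, and none of these 5 motifs contains another. The erythroid set is KLF1 (chr19:12998016-12998265, minus strand), the second window of HEMGN (chr9:100700455-100700704, minus strand) and the first window of PKLR (chr1:155271230-155271479, minus strand), which are genes with large falls that hold GATAA.
KLF1: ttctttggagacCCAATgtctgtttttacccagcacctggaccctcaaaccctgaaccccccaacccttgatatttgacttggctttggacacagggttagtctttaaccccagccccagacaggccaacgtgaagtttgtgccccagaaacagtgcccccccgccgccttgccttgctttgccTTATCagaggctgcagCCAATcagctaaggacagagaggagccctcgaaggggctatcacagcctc
HEMGN: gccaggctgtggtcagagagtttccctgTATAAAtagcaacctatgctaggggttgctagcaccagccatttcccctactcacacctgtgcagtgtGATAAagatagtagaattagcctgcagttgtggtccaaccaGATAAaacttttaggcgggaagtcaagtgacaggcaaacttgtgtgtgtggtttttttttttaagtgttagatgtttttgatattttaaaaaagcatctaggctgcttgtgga
PKLR: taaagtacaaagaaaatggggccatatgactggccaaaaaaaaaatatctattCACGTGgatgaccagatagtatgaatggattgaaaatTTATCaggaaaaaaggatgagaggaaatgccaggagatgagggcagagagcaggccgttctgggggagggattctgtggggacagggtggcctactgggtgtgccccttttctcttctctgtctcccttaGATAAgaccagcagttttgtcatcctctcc
The histone set is HIST1H2AC (chr6:26124150-26124399, plus strand), HIST1H2BJ (chr6:27100575-27100824, minus strand) and HIST2H2BE (chr1:149858233-149858482, minus strand), which hold the octamer, and HIST1H4H (chr6:26285763-26286012, minus strand), the histone gene with the smallest p, which holds none of the 5 motifs.
HIST1H2AC: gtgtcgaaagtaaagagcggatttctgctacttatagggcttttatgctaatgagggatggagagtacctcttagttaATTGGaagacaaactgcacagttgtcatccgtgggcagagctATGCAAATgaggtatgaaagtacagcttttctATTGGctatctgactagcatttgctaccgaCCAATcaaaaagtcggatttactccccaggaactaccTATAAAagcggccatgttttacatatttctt
HIST1H2BJ: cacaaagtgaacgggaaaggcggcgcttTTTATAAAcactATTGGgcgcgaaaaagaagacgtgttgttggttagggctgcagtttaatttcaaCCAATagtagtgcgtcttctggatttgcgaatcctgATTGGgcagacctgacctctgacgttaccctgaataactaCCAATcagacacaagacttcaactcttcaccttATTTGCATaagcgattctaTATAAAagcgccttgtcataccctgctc
HIST2H2BE: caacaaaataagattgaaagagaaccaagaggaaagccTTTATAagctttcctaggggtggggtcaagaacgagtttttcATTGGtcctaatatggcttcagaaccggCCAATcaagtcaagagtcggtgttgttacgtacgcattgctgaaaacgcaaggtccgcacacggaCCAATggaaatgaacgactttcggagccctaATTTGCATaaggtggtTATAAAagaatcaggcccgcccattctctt
HIST1H4H: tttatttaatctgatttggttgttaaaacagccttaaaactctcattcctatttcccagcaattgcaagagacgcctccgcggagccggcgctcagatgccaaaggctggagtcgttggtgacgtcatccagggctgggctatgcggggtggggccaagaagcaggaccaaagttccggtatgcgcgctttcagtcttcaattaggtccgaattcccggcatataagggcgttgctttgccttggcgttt

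In KLF1 the GATAA letters lie on the opposite strand 66 bases before the start, next to a CCAAT 50 bases before it. In HIST1H2BJ and HIST2H2BE the octamer begins 47 and 46 bases before the start, upstream of a TATAAA, and in HIST1H2AC it lies on the opposite strand at 130 bases. Windows were found for 187 of the 259 genes called. GATAA occurred in 25.2% of 135 windows of genes called lower, in 19 of 146 windows of genes called higher, in 13.6% of the windows of the tested genes and in 20.4% of all 35116 windows. The octamer occurred in 8 of 13 windows (61.5%) of histone genes called higher and in 2 of 12 windows (16.7%) of the other histone genes of the list. It occurred in 1.32% of the windows of the tested genes and in 1.63% of all windows. Several of the histone genes called higher are H2B genes, and the part of histone class in these shares was not tested. CCAAT occurred in 12 of these 13 and all 12 of these 12 histone windows, against 33.5% of the windows of the tested genes and 32.0% of all. TATAAA occurred in 76.9% and 58.3% of these histone windows, against 5.77% of those of the tested genes and 10.7% of all. CACGTG occurred in 8.15% of the windows of genes called lower, 3.42% of those of genes called higher, 8.41% of those of the tested genes and 6.34% of all. These shares describe letters only and were not tested.

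Over the log2 values, which are not independent across genes, the 2 samples of 2 µM I-CBP112 correlated with r = 0.998 and those of DMSO with r = 0.997, and their FPKM summed to between 594701 and 620641. Read counts are not in the table, so no counting error could be given, and relative depth, estimated from 284 rarely seen genes chosen for near-equal values, ranged from 0.902 to 1.08 over the 10 libraries. One library outside the comparison stood apart, the first replicate of 2 µM CBP30, whose pair correlated with r = 0.987. Its FPKM summed to 689095, its deviations from the mean went with transcript length (rho = −0.243 over genes), and EEF1A1, an abundant translation factor, is listed at 0 in it. Within the comparison this rho was 0.110 and −0.0057 in the samples of 2 µM I-CBP112 and −0.0096 and 0.0078 in those of DMSO. With the length trend removed, among genes of known transcript length, 149 genes were called lower with 2 µM I-CBP112 and 164 higher. The main fit called 119 and 140. The relative depths were 1.013 and 1.019 with 2 µM I-CBP112 and 0.902 and 0.962 with DMSO, and the part of depth in the results was not tested. The first replicate of 2 µM CBP30 takes part in the spread that all comparisons share, so counts are also given without it. Of 10 genes that mark K562, including BCR, ABL1 and the fetal and embryonic globins, all were present in the 4 samples. Markers of T and NK cells summed to 17.0 to 20.1 FPKM with DMSO and 18.3 to 18.5 with 2 µM I-CBP112, and those of B cells to 1.02 to 1.07 and 1.10 to 1.33. Markers of fibroblasts summed to 0.730 to 0.758 and 1.20 to 1.38. Those of epithelial cells, mainly KRT8 and KRT18, summed to 473 to 488 and 528 to 558. CD2, MS4A1, LUM, KRT5 and KRT14 were at 0 in all 4 samples, and the part of these markers in the results was not tested.

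With 2 µM I-CBP112, 119 genes (0.960% of those tested) fell and 140 (1.13%) rose, together 2.09%. Without the first replicate of 2 µM CBP30 the calls were 884 lower (7.13%) and 756 higher (6.10%), and these included all 119 and all 140. For all 259 genes, both treated samples lay beyond both DMSO samples. That separation is common in these data: 3581 genes (28.9%) had both treated samples below both DMSO samples and 3155 (25.5%) had them above. The median log2 fold change of all tested genes was −0.0047 and the median standard error 0.0923. Of the 12392 genes 6404 had a lower mean than with DMSO. The shares given here are those to set beside the counts of list members that follow. All lists were chosen with earlier results of these data known, so those counts are not independent evidence. At an unadjusted p under 0.05 there were 831 lower and 902 higher genes.

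The counts also rest on each of the 4 samples compared. They were 9 lower and 25 higher without DMSO replicate 1 and 11 and 31 without DMSO replicate 2. They were 8 and 23 without the first replicate of 2 µM I-CBP112 and 14 and 26 without the second. Of the 75 called genes followed through these fits, 18 were called in each of the 4. Those that fell in all of them were PKLR, HEMGN, LMO2, MS4A3, SLC16A9 and DYSF. Those that rose were LOC283214, IGFL2, CD24, EPHB6, EGR1, FGFR1 and the histone genes HIST1H4H, HIST2H2BE, HIST1H2AC, HIST1H2BC, HIST1H2BH and HIST1H2BO. Of these, CD24, EPHB6, FGFR1 and HIST1H2BO, an H2B gene outside the histone list, were chosen after their values were seen. HIST1H2BO measured 20.5 and 22.2 FPKM in DMSO and 37.9 and 39.2 after treatment (log2 0.82 ± 0.069, adjusted p = 0.00118).

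Among the same 75 genes, 29 lost their call under at least 1 alternative that kept all samples, with no change of direction. With values given here these were NRGN, NPDC1, KIT, HBZ, NFE2, RMRP, SLC40A1, CD9, FCGR2A, FGFR3, LYZ, GFI1B, HIST1H2BK, CDKN2D, ANXA1, IFIT3, HBG2, BCAM, ANK1, PPOX, S100P, IFIT2, TFR2, CDKN1A and HBG1.

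The changes were small in size. Among the 119 genes that fell the median log2 fold change was −0.47 (quartiles −0.57 and −0.39), which left a median of 68.9% of the DMSO level. Of these, 3 had a fall of 1 or more on the log2 scale. Among the 140 that rose the median was 0.58 (quartiles 0.43 and 0.78), a median of 171% of the DMSO level, and 12 had a rise of 1 or more. The genes that fell had a median of 19.4 FPKM in DMSO against 3.85 FPKM for those that rose. Of the latter, 24 were under 1 FPKM in DMSO. The same DMSO samples enter the calls, and a gene near 0 in DMSO can hardly be called lower. This contrast is therefore partly set by the selection of the genes.

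**Figure D1:**
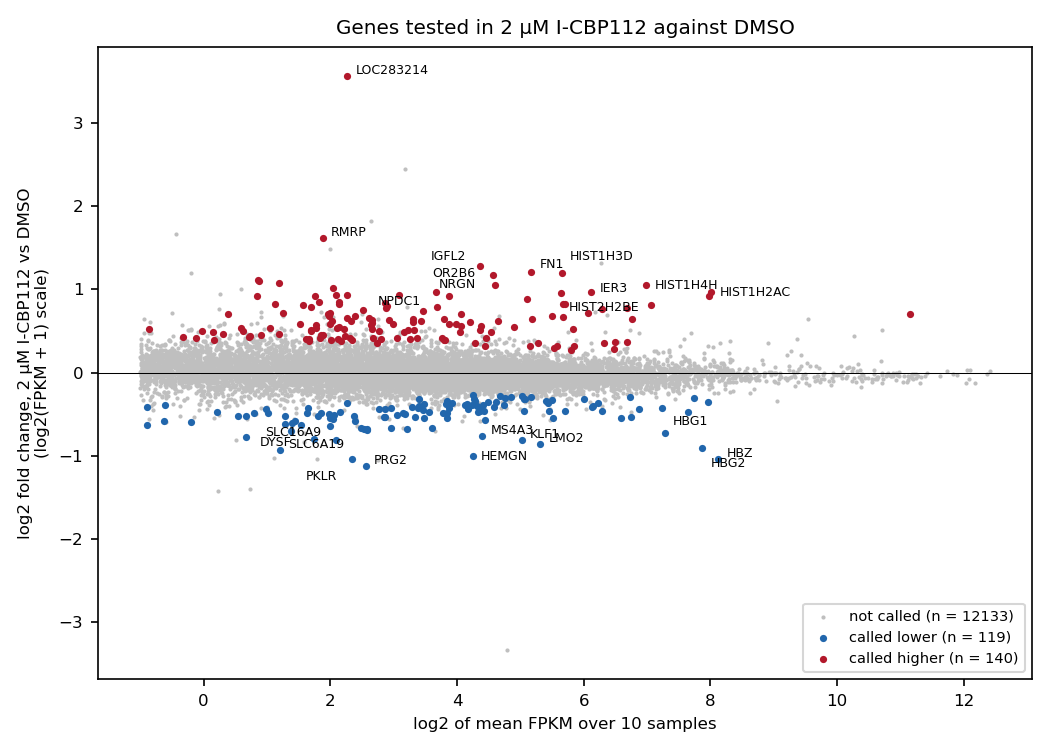
Each point is one of 12392 genes, with the log2 of its mean FPKM over 10 samples on the x axis and its log2 fold change between 2 µM I-CBP112 and DMSO on the y axis; blue marks the 119 genes called lower, red the 140 called higher, and names mark the 12 largest of each with at least 5 FPKM. The globin genes stand at the right among the falls, and LOC283214 is the highest of the called genes at 3.57.

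The largest falls included genes of erythroid and granulocytic cells. In bulk RNA, fewer cells of a kind and less RNA per cell cannot be told apart. PRG2, which encodes the eosinophil granule major basic protein, measured 14.5 and 17.3 FPKM with DMSO and 6.24 and 7.30 with 2 µM I-CBP112, 42.5% of the DMSO mean (log2 −1.12 ± 0.14, adjusted p = 0.00663). PKLR, the pyruvate kinase of red cells and liver (chr1:155259084-155271229), measured 12.5 and 12.4 FPKM with DMSO and 5.62 and 5.41 with treatment (log2 −1.04 ± 0.07, adjusted p = 0.000488). HEMGN, which encodes the hematopoietic nuclear protein hemogen, went from 44.4 and 44.1 to 21.2 and 22.1 FPKM (95% interval of the log2 fold change −1.19 to −0.81, adjusted p = 0.00118). In all 3 genes the replicates were close to each other and the groups did not overlap.

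MS4A3, a membrane protein of developing granulocytes, fell from 45.1 and 48.7 FPKM to 27.5 and 26.9 (log2 −0.76 ± 0.077, adjusted p = 0.00236). SLC16A9, a monocarboxylate transporter family member, fell from 8.75 and 8.36 to 4.47 and 4.40 (log2 −0.81 ± 0.073, adjusted p = 0.00118). DYSF, which encodes the membrane repair protein dysferlin, fell from 7.96 and 7.71 to 3.95 and 4.17 (log2 −0.80 ± 0.071, adjusted p = 0.00118). SLC6A19, an amino acid transporter best known in kidney and gut, fell from 6.11 and 5.55 to 2.73 and 2.46 (log2 −0.93 ± 0.10, adjusted p = 0.00336). Each of these 4 genes was between 44.5% and 57.9% of its DMSO mean. Of the myeloid and granulocyte list, 3 of 14 tested members fell (PRG2, MS4A3 and S100P), 1 rose and 10 were not called. S100P, a calcium-binding protein, fell from 30.2 and 32.2 to 22.01 and 20.1 FPKM (log2 −0.55 ± 0.11, adjusted p = 0.0432). The member that rose was LYZ, the lysozyme gene, with 37.96 and 38.4 FPKM in DMSO and 47.7 and 46.5 after treatment (log2 0.29 ± 0.055, adjusted p = 0.0306). CD33, a myeloid surface receptor and the most abundant member, measured 83.5 and 87.7 and 87.96 and 88.97 FPKM (log2 fold change 0.048, adjusted p = 0.831).

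**Figure D2:**
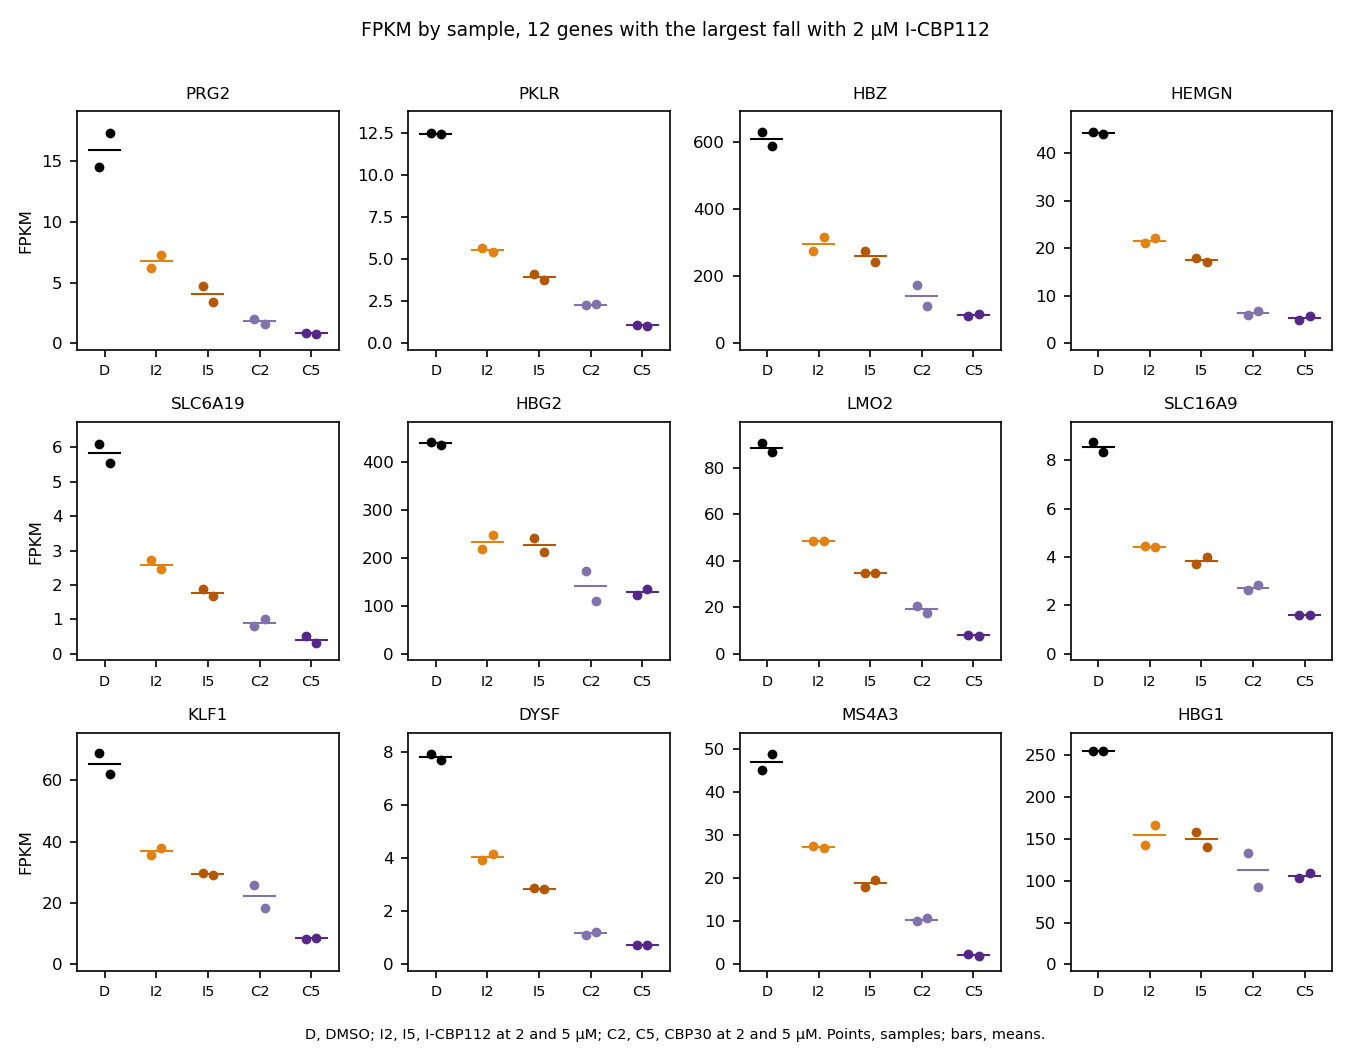
FPKM on the y axis (linear, from 0) for the 12 genes with the largest falls with 2 µM I-CBP112 among those with at least 5 FPKM, in 5 conditions on the x axis; points are the 2 samples of each and bars their means. In every panel the 2 samples of 2 µM I-CBP112 lie below both DMSO samples, for HBZ at 275 and 318 against 630.3 and 589 FPKM.

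A list of erythroid transcription factors, which also holds the ubiquitin ligase TRIM58, had 13 tested members. Of these 5 fell, TRIM58 among them, and none rose (8 and 0 without the first replicate of 2 µM CBP30). The median log2 fold change was −0.24, with 8 means below DMSO and 5 above. LMO2, the bridging protein of the complex of GATA1 and TAL1 (chr11:33880122-33913623), measured 90.4 and 86.7 FPKM with DMSO and 48.5 and 48.3 with 2 µM I-CBP112 (log2 −0.86 ± 0.074, adjusted p = 0.00118). KLF1, the activator of adult globin and red cell genes (chr19:12995236-12998015), measured 68.8 and 61.9 and 35.7 and 37.9 FPKM (log2 −0.81 ± 0.13, adjusted p = 0.0171). They were at 54.7% and 56.3% of their DMSO means, and the groups did not overlap. NFE2, a subunit of a globin-activating factor that also serves megakaryocytes, went from 78.3 and 77.3 to 52.9 and 52.9 FPKM (log2 −0.55 ± 0.10, adjusted p = 0.0242). GFI1B, a repressor of the GFI family, went from 34.5 and 33.6 to 23.97 and 24.7 (log2 −0.47 ± 0.088, adjusted p = 0.0326). TRIM58, a ubiquitin ligase of late erythroid cells, went from 16.1 and 16.1 to 9.37 and 10.03 (log2 −0.68 ± 0.10, adjusted p = 0.0118).

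GATA1, the central factor of the lineage and the most abundant member of the list, measured 169.7 and 171 FPKM with DMSO and 138 and 151 with treatment. Both treated samples were below both DMSO samples, but the difference did not pass the threshold (log2 −0.24 ± 0.10, adjusted p = 0.308, 95% interval −0.45 to −0.019). Without the first replicate of 2 µM CBP30 the adjusted p was 0.011. MYB, a factor of progenitor cells, measured 124 and 124 and 133 and 136 FPKM (log2 fold change 0.12, adjusted p = 0.431).

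All 8 tested globin genes had a lower mean with 2 µM I-CBP112, as did 6404 of all 12392 tested genes. Of the 8 globin genes 3 were called (4 without that library), against 0.960% of all tested genes (7.13% without it). All 3 calls were lost with no filter, with adjusted p of 0.066 for HBZ, 0.093 for HBG2 and 0.105 for HBG1. They were also lost with small RNA genes kept (0.058, 0.081 and 0.095). HBG2 and HBG1 lost theirs with median centring (0.060 and 0.074) and with the replicate block (0.058 and 0.075). HBZ, the embryonic alpha-like chain (chr16:192727-204502), had 630.3 and 589 FPKM with DMSO and 275 and 318 with treatment (log2 −1.04 ± 0.18, adjusted p = 0.0236). HBG2, a fetal gamma chain, went from 442 and 435 to 219 and 248 FPKM (log2 −0.91 ± 0.18, adjusted p = 0.0376). HBG1, the other, went from 255 and 255 to 142 and 167 (log2 −0.73 ± 0.15, adjusted p = 0.0484). The gamma genes are nearly identical copies, so the division of their reads between them is uncertain. In these 3 genes the first treated sample was lower than the second, by a gap smaller than that to DMSO. The median log2 fold change over the 8 genes was −0.44.

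Heme and the iron it holds are made available by dedicated sets of genes. In heme synthesis 1 of 13 tested members fell, and 7 without the first replicate of 2 µM CBP30. Of all tested genes 0.960% and 7.13% did. The gene called in both was PPOX, the penultimate enzyme of the pathway, which went from 25.4 and 24.4 to 18.8 and 19.2 FPKM (log2 −0.37 ± 0.075, adjusted p = 0.0421). UROD, the most abundant enzyme of the list, measured 359.7 and 360.3 FPKM in DMSO and 289.7 and 319.7 after treatment (log2 fold change −0.24, adjusted p = 0.363). Of 12 iron genes 2 fell (4 without that library). SLC40A1, the iron exporter ferroportin, fell from 19.3 and 19.5 to 13.1 and 12.9 (log2 −0.55 ± 0.10, adjusted p = 0.0248). TFR2, the second transferrin receptor, fell from 40.6 and 39.2 to 30.00 and 31.8 (log2 −0.36 ± 0.074, adjusted p = 0.047). The ferritin chains FTL and FTH1 differed from DMSO by −0.011 and −0.038 on the log2 scale, less than their standard errors.

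Of 22 genes for the red cell membrane and blood groups, 4 fell and 1 rose (12 and 1 without that library). RHAG, the Rh-associated glycoprotein, went from 203 and 203 to 149 and 153 FPKM (log2 −0.42 ± 0.063, adjusted p = 0.0131). TMOD1, which caps actin filaments of the membrane skeleton, went from 23.4 and 23.1 to 17.2 and 17.03 (log2 −0.42 ± 0.058, adjusted p = 0.00969). ADD2 (beta adducin) went from 8.20 and 7.76 to 4.73 and 5.57 (log2 −0.55 ± 0.087, adjusted p = 0.0171). ANK1 (ankyrin) went from 16.5 and 15.8 to 12.2 and 12.3 (log2 −0.38 ± 0.075, adjusted p = 0.0407). BCAM, which carries the Lutheran antigens, moved the other way, from 5.02 and 5.11 to 6.80 and 6.75 (log2 0.36 ± 0.071, adjusted p = 0.04). EPOR, the erythropoietin receptor, fell from 7.06 and 6.63 to 4.33 and 4.73 FPKM (log2 −0.51 ± 0.083, adjusted p = 0.0182). KIT, the stem cell factor receptor of earlier progenitors, rose from 3.16 and 3.02 to 5.33 and 5.19 (log2 0.61 ± 0.11, adjusted p = 0.0234). They were the only members called among 22 of the BCR-ABL and JAK-STAT5 list (3 lower and 6 higher without that library). Among 7 megakaryocyte genes, NFE2 fell and CD9, a tetraspanin, rose from 9.66 and 9.62 to 15.2 and 15.1 (log2 0.61 ± 0.11, adjusted p = 0.0272).

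**Figure D3:**
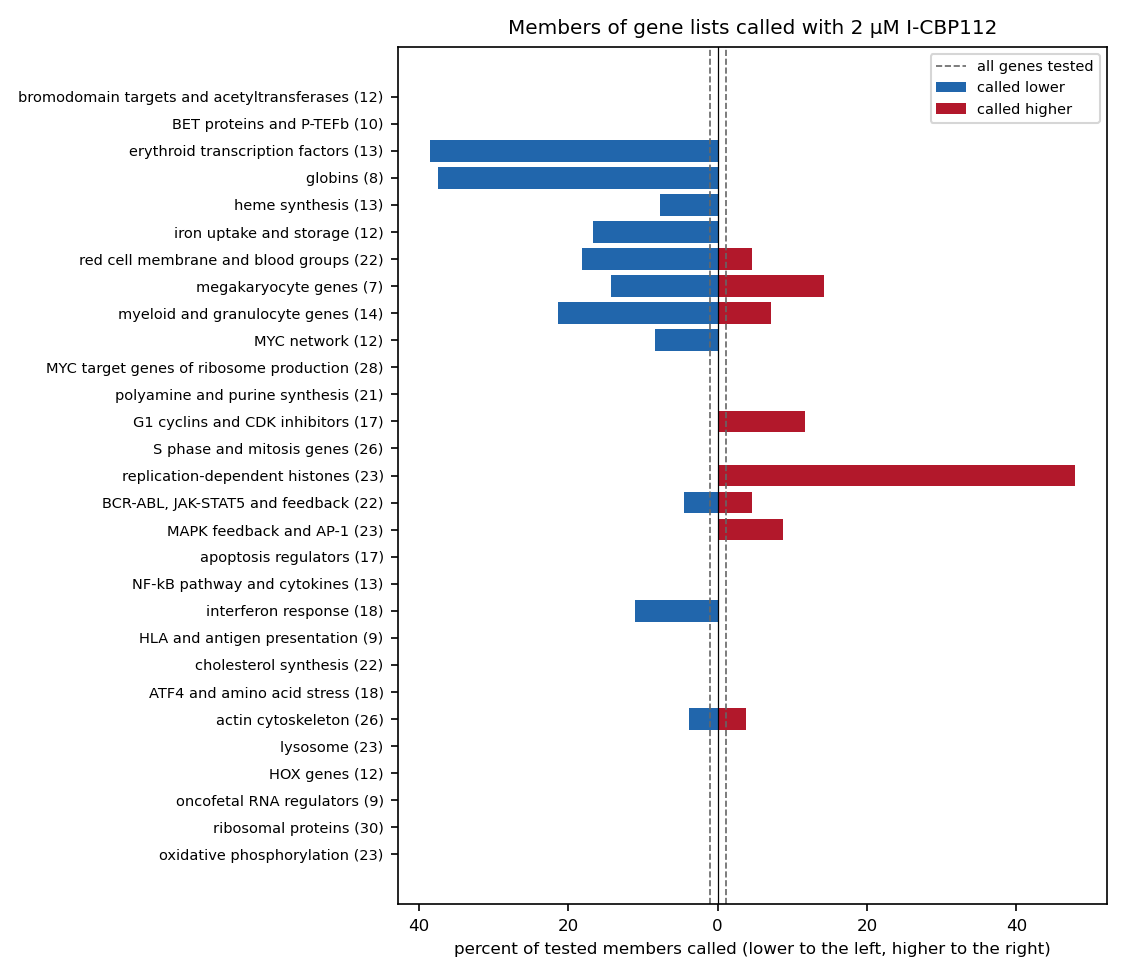
Bars give the percent of tested members called in each gene list other than the cell markers and the short list with MYC and FGF13, either lower (blue, to the left) or higher (red, to the right) with 2 µM I-CBP112, the number tested stands in parentheses, and dashed lines mark the 0.960% and 1.13% of all tested genes. Of the lists drawn, the erythroid transcription factors (5 of 13, counting TRIM58) and globins (3 of 8) reach furthest to the left. The histone genes (11 of 23) reach furthest to the right. The K562 markers, which hold several of the same genes, had 4 of 10 lower.

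MYC, the growth-promoting transcription factor, was measured at 338 and 320.1 FPKM with DMSO and 241 and 231 with 2 µM I-CBP112, 71.7% of the DMSO mean (log2 −0.48 ± 0.061, adjusted p = 0.00681). It was the only one of 12 tested members of the MYC network that was called (2 without the first replicate of 2 µM CBP30). Of 28 target genes of MYC in ribosome production none was called. A lower mean was seen in 26 of them, and in 6404 of all 12392 tested genes. The median of the 28 was −0.12. Without that library 8 were called lower, against 7.13% of all tested genes. Of 21 genes for polyamine and purine synthesis none was called, and 19 had a lower mean. Without that library 6 of them were called lower, against the same 7.13% of all tested genes. The ribosomal proteins (0 of 30) and oxidative phosphorylation genes (0 of 23) had medians of −0.038 and −0.086.

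Of 10 tested genes on a short list of growth genes and reference genes, compiled with results of these data known, 3 fell, namely MYC, FGF13 and FGFR3 (5 without that library). Their number is therefore not independent evidence. FGF13, an intracellular member of the fibroblast growth factor family, went from 21.7 and 21.8 to 12.7 and 13.96 FPKM (log2 −0.67 ± 0.078, adjusted p = 0.00453). FGFR3, a receptor of that family of growth factors, went from 3.95 and 3.43 to 2.26 and 2.42 (log2 −0.49 ± 0.09, adjusted p = 0.0305). CCND1 (cyclin D1) measured 4.41 and 4.31 FPKM in DMSO and 3.29 and 3.28 after treatment, all at low level, with an adjusted p of 0.171. FOSL1, an AP-1 subunit, differed by −0.32 (adjusted p = 0.295). TERT, the telomerase catalytic subunit, differed by −0.14 (adjusted p = 0.456) and HOXB9 by −0.059 (adjusted p = 0.748). The reference genes GAPDH and ACTB differed by −0.081 and 0.032, within their standard errors. The inhibitor's own targets showed no detectable change of mRNA. CREBBP measured 6.27 and 6.63 FPKM in DMSO and 7.69 and 6.57 after treatment (95% interval of the log2 fold change −0.23 to 0.48). EP300 measured 7.64 and 8.09 and 9.28 and 8.25 (−0.33 to 0.61).

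Replication-dependent histone genes formed the list with the most rises, 11 of 23 tested members (16 without the first replicate of 2 µM CBP30), with none lower and a median log2 fold change of 0.59. These genes package new DNA, and most of their mRNA ends in a stem-loop rather than a poly(A) tail, so libraries made from polyadenylated RNA sample it in part. Many are also near-identical copies of each other, which makes the division of reads among them uncertain. HIST1H4H, an H4 gene, measured 25.5 and 23.8 FPKM with DMSO and 52.3 and 52.2 with 2 µM I-CBP112 (log2 1.06 ± 0.072, adjusted p = 0.000488). HIST2H2BE, an H2B gene outside the main cluster, measured 15.2 and 16.8 and 31.8 and 32.3 (log2 0.96 ± 0.071, adjusted p = 0.000632). HIST1H2AC, an H2A gene, measured 107 and 98.9 and 202 and 203 (log2 0.97 ± 0.092, adjusted p = 0.00166). The treated means of these 3 genes were 2.12-fold, 2.002-fold and 1.97-fold those of DMSO, and their replicates differed by far less than the groups.

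The H3 gene HIST1H3D had 10.9 and 12.7 FPKM in DMSO and 31.2 and 25.8 after treatment (log2 1.20 ± 0.17, adjusted p = 0.0117). Among H2B genes, HIST1H2BJ went from 42.6 and 44.3 to 73.4 and 80.6 FPKM (log2 0.81 ± 0.089, adjusted p = 0.00336). HIST1H2BH went from 21.7 and 21.1 to 40.1 and 37.3 (log2 0.82 ± 0.074, adjusted p = 0.00118). These H2B genes rose by similar factors, as did HIST1H2BC, from 26.95 and 26.2 to 43.3 and 45.5 (log2 0.72 ± 0.054, adjusted p = 0.000632). The most abundant, HIST1H2BK, went from 1047 and 1026 to 1697 and 1674 FPKM (log2 0.70 ± 0.13, adjusted p = 0.0338). HIST1H1C, a linker histone, had 977 and 927 and 1308 and 1414 FPKM and was not called (adjusted p = 0.2). Of 26 genes of S phase and mitosis none was called (1 lower and 2 higher without the first replicate of 2 µM CBP30), and the median was 0.0025. MCM7 and MCM3, subunits of the replicative helicase, differed by 0.0062 and 0.043. Of 17 G1 cyclins and CDK inhibitors 2 rose, both inhibitors. CDKN1A (p21) rose from 5.20 and 5.91 to 8.19 and 10.1 FPKM (log2 0.63 ± 0.13, adjusted p = 0.0471). CDKN2D (p19) rose from 2.94 and 2.74 to 4.14 and 4.23 (log2 0.43 ± 0.083, adjusted p = 0.0363).

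LOC283214 was listed at 0 in both DMSO samples and measured 8.38 and 13.96 FPKM with 2 µM I-CBP112 (log2 3.57 ± 0.18, adjusted p = 0.000154). Against samples at 0 this difference depends on the 1 that is added to FPKM and is no fold. LOC283214 reached the mean of 0.5 FPKM only through the samples of I-CBP112, so its adjusted p values are not independent of the filter. By the gene number in its symbol it is DGAT2-DT in RefSeq, a long noncoding RNA (chr11:75469500-75479692 of hg19, minus strand) that overlaps the start of DGAT2, a triglyceride synthesis gene on the plus strand (chr11:75470557-75512580). DGAT2, chosen for this position after its values were seen, measured 1.37 and 1.43 FPKM in DMSO and 1.11 and 1.47 after treatment, with no detectable change (adjusted p = 0.848). Whether the counting used strand is not stated in the sources used here. RMRP, the RNA of the RNase MRP ribonucleoprotein, measured 1.04 and 1.93 FPKM in DMSO and 7.43 and 5.73 after treatment (log2 1.62 ± 0.29, adjusted p = 0.0246). It lacks a poly(A) tail, so these libraries sample it in part.

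IGFL2, an insulin growth factor-like secreted protein, rose from 6.79 and 8.94 to 19.8 and 20.9 FPKM (log2 1.28 ± 0.13, adjusted p = 0.00236). FN1 (fibronectin), of the extracellular matrix, rose from 9.57 and 10.99 to 26.7 and 23.3 (log2 1.20 ± 0.18, adjusted p = 0.0133). NRGN, the calmodulin-binding protein neurogranin, rose from 8.19 and 7.33 to 16.95 and 20.6 (log2 1.17 ± 0.19, adjusted p = 0.0172). OR2B6, an olfactory receptor gene near the histone cluster of chromosome 6, rose from 7.67 and 8.31 to 16.7 and 18.6 (log2 1.05 ± 0.12, adjusted p = 0.00346). NPDC1 rose from 5.01 and 4.96 to 10.1 and 11.3 (log2 0.96 ± 0.16, adjusted p = 0.0173). In each of these 5 genes the lower treated sample exceeded the higher DMSO sample. FN1 is also made by fibroblasts, and of their markers COL1A1 measured 0.520 and 0.442 FPKM in DMSO and 0.869 and 0.925 after treatment, while LUM was at 0 in all 4. The part of such cells was not tested.

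Of 23 genes of MAPK feedback and AP-1, 2 rose (8 without the first replicate of 2 µM CBP30, where 3 were lower). IER3, an early response gene linked to cell survival, rose from 29.1 and 26.8 to 54.8 and 56.2 FPKM (log2 0.97 ± 0.14, adjusted p = 0.0106). EGR1, an early growth response factor, rose from 75.4 and 78.2 to 119 and 121 (log2 0.64 ± 0.058, adjusted p = 0.00118). Of 18 interferon response genes 2 fell, both at low level (3 lower and 2 higher without that library). The median of this list was 0.082, with 8 means below DMSO and 10 above. IFIT3 went from 3.60 and 3.04 to 1.77 and 2.24 FPKM (log2 −0.52 ± 0.10, adjusted p = 0.0376). Its neighbour IFIT2 went from 1.15 and 1.12 to 0.576 and 0.693 (log2 −0.38 ± 0.078, adjusted p = 0.046). Of 26 actin genes 1 rose and 1 fell (8 and 3 without that library). TPM4 (tropomyosin) rose from 45.8 and 45.3 to 57.5 and 56.9 (log2 0.32 ± 0.05, adjusted p = 0.0158). In the same list ANXA1 (annexin A1) fell from 344 and 343 to 265 and 271 (log2 −0.36 ± 0.069, adjusted p = 0.0376). No member was called among 12 acetyltransferases and bromodomain targets, 10 BET and P-TEFb genes, 17 apoptosis regulators, 13 NF-kB genes, 9 HLA genes, 22 cholesterol genes, 18 ATF4 genes, 23 lysosome genes, 12 HOX genes and 9 oncofetal genes. Their medians lay between −0.079 and 0.095, and without the first replicate of 2 µM CBP30 each had 0 to 4 calls in either direction. The largest of these counts were 4 lower and 4 higher lysosome genes and 3 lower NF-kB genes. The HLA, apoptosis and cholesterol lists had 3 higher genes each. Of all tested genes 7.13% were then lower and 6.10% higher.

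**Figure D4:**
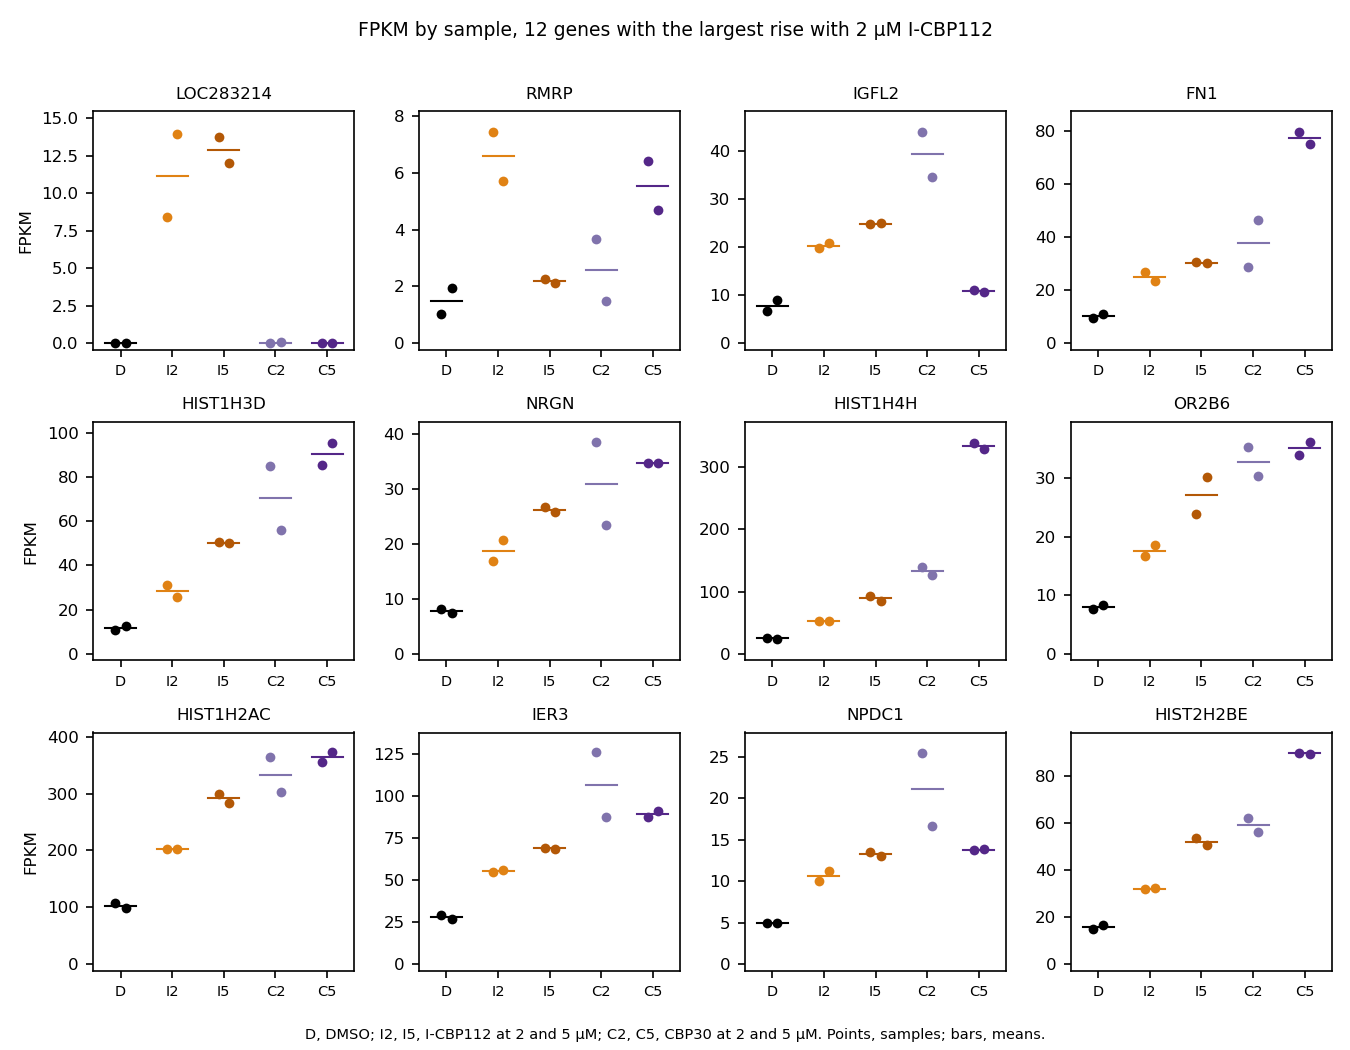
FPKM on the y axis (linear, from 0) for the 12 genes with the largest rises with 2 µM I-CBP112 among those with at least 5 FPKM, in 5 conditions on the x axis; points are the 2 samples of each and bars their means. In every panel both samples of 2 µM I-CBP112 lie above both DMSO samples, and LOC283214 is at 0 in DMSO and in 5 µM CBP30.

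Genes chosen after their values were seen add to both sides. CD24, a surface glycoprotein, rose from 81.98 and 86.5 to 159 and 162 FPKM (log2 0.92 ± 0.061, adjusted p = 0.000488). EPHB6, an ephrin receptor, rose from 14.9 and 14.2 to 27.7 and 27.6 (log2 0.88 ± 0.066, adjusted p = 0.000632). FGFR1, a fibroblast growth factor receptor, rose from 7.19 and 7.13 to 12.6 and 11.9 (log2 0.70 ± 0.06, adjusted p = 0.00118). NOTCH1, a receptor of cell fate decisions, rose from 2.90 and 3.18 to 5.63 and 4.86 (log2 0.63 ± 0.092, adjusted p = 0.0123). The adjacent genes FOXA2, an endodermal transcription factor, and LINC00261 both rose. FOXA2 went from 3.21 and 3.54 to 6.13 and 5.89 FPKM (log2 0.68 ± 0.083, adjusted p = 0.00553) and LINC00261 from 2.21 and 2.39 to 4.40 and 4.35 (log2 0.70 ± 0.086, adjusted p = 0.00569). STAR, a cholesterol carrier of steroid synthesis, fell from 39.1 and 42.03 to 26.3 and 27.9 (log2 −0.56 ± 0.062, adjusted p = 0.00336). KCNH2, a potassium channel, fell from 204 and 192 to 144 and 147 (log2 −0.44 ± 0.068, adjusted p = 0.0153). UCP2, a mitochondrial carrier, fell from 116 and 110.4 to 78.6 and 84.99 (log2 −0.46 ± 0.074, adjusted p = 0.0171). Some called genes were neighbours: 16 of 115 genes that fell with a known position (13.9%) had another such gene within 200 kb, against 4.19% of all tested genes. Of those that rose it was 23 of 133 (17.3%, 11 of them on chromosome 6), against 6.53%.

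The 5 µM dose of the same compound asked how much of the response was already reached at 2 µM. Between the doses 0 genes were lower at 5 µM and 3 (0.0242% of those tested) higher in limma's test, with 314 and 394 at an unadjusted p under 0.05. Without the first replicate of 2 µM CBP30 the calls were 65 lower (0.525%) and 87 higher (0.702%). Without any 1 of the 4 samples compared there were 0 lower and at most 1 higher. The 3 genes were all histones. HIST1H4H had 93.1 and 85.3 FPKM at 5 µM (log2 0.76 ± 0.072, adjusted p = 0.0299). HIST2H2BE had 53.4 and 50.4 (log2 0.68 ± 0.071, adjusted p = 0.0299) and HIST1H2BC had 62.6 and 63.7 (log2 0.50 ± 0.054, adjusted p = 0.0299). Each of these had risen by 2 µM and was higher again at 5 µM, with no overlap between the 3 groups.

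The medians of the genes called at 2 µM show a modest further shift, with both doses set against the same DMSO samples. The 119 genes that fell were at a median of 68.9% of DMSO at 2 µM and 62.6% at 5 µM, and the 140 that rose at 171% and 209%. LMO2 had 34.9 and 34.7 FPKM at 5 µM, below its values at 2 µM but not called (log2 −0.46 ± 0.074, adjusted p = 0.165). MS4A3 and PRG2 had 17.95 and 19.5 and 4.71 and 3.43 FPKM (adjusted p = 0.137 and 0.431 between doses). Without the first replicate of 2 µM CBP30, 17 of the 119 were called lower at 5 µM than at 2 µM and 39 of the 140 higher.

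For other genes the doses could not be told apart. HBG2 had 242 and 213 FPKM at 5 µM, overlapping the samples at 2 µM, with a difference of −0.039 (95% interval −0.44 to 0.36). RHAG had 158 and 155 FPKM (95% interval −0.095 to 0.19). EGR1 had 132 and 123 FPKM (95% interval −0.047 to 0.21). LOC283214 measured 13.7 and 12.01 FPKM at 5 µM, within the range of the 2 µM samples, with a 95% interval of the difference from −0.19 to 0.63. RMRP measured 2.25 and 2.12 FPKM at 5 µM, between DMSO and the lower dose, and its difference between doses was not called (log2 −1.24 ± 0.29, adjusted p = 0.445).

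CBP30 at the same 2 µM dose gave the matched comparison of the compounds, which are known here by their code names. Against 2 µM I-CBP112, 1304 genes (10.5%) were lower and 1136 (9.17%) higher with 2 µM CBP30. With only the groups compared in the fit there were 54 and 32. The 2 samples of 2 µM CBP30 correlated less (r = 0.987) than those of 2 µM I-CBP112 (r = 0.998), and the spread shared over all groups takes no account of that. Of the 119 genes that fell with I-CBP112, 96 were lower again with CBP30 and none was higher. Of the 140 that rose, 78 were higher and 8 lower. Without the first replicate of 2 µM CBP30 these were 102 and 0 of the 119, and 81 and 8 of the 140, from 1591 lower and 1314 higher genes in all. Without the second there were 3380 lower and 3725 higher genes in all, and without the first or the second sample of 2 µM I-CBP112 there were 302 or 365 lower and 197 or 289 higher. Both comparisons use the samples of 2 µM I-CBP112. Set against the same DMSO samples, the 119 genes had a median of 43.3% of DMSO with 2 µM CBP30 and 37.5% with 5 µM, and the 140 genes 231% and 273%. With 5 µM CBP30 2 of the 119, ECM1 and GABARAPL1, lay above DMSO. Of the 140, 4 lay below it, namely AQP7P1, FCGR2A, FOXA2 and ZFP42. These were named after their values were seen, and 1 of each set was called on that side.

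HEMGN had 6.03 and 6.88 FPKM with 2 µM CBP30 (log2 −1.60 ± 0.085, adjusted p = 3.78e-05, CBP30 against I-CBP112). LMO2 had 20.6 and 17.7 (log2 −1.30 ± 0.074, adjusted p = 5.3e-05) and MYC had 148 and 146 (log2 −0.68 ± 0.061, adjusted p = 0.000351). GATA1, not called with 2 µM I-CBP112, had 105 and 85.3 FPKM with 2 µM CBP30 (log2 −0.60 ± 0.10, adjusted p = 0.00485). HIST1H4H had 139 and 126 FPKM (log2 1.33 ± 0.072, adjusted p = 3.89e-05) and CD24 367 and 366 (log2 1.19 ± 0.061, adjusted p = 3.78e-05). In all 6 genes the CBP30 samples lay further from DMSO than those of I-CBP112. For EGR1 the compounds could not be told apart at 2 µM, with a 95% interval of the difference from −0.15 to 0.11. The interval was −0.24 to 0.24 for KIT and −0.12 to 0.13 for LYZ. PPOX was measured at 18.4 and 15.9 FPKM with CBP30 (95% interval −0.31 to 0.026).

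The 8 genes that rose with 2 µM I-CBP112 and were lower with 2 µM CBP30 were LOC283214, RMRP, ZFP42, FCGR2A, PTPN7, MMP1, ADAMTS14 and ENC1. Those besides LOC283214 and RMRP were chosen after their values were seen. LOC283214 measured 0 and 0.0599 FPKM with 2 µM CBP30 and 0 and 0 with 5 µM (log2 −3.52 ± 0.18, adjusted p = 3.78e-05). It was thus seen in all 4 samples of I-CBP112 and was at or near 0 in the other 6. ZFP42, a transcription factor of pluripotent cells, went from 12.1 and 12.4 FPKM in DMSO to 20.04 and 17.8 with I-CBP112 and measured 13.9 and 14.3 with CBP30 (log2 −0.40 ± 0.073, adjusted p = 0.00852). FCGR2A, an Fc receptor of myeloid cells, had 37.9 and 39.6, then 49.3 and 50.6 and 36.98 and 40.7 (log2 −0.36 ± 0.066, adjusted p = 0.0088). With 5 µM CBP30 FCGR2A measured 17.8 and 17.03 FPKM, below DMSO (log2 −1.11 ± 0.066, adjusted p = 3.65e-06). The phosphatase gene PTPN7 had 13.5 and 14.1, then 19.8 and 19.5 and 15.8 and 16.9 (log2 −0.26 ± 0.063, adjusted p = 0.026). For RMRP the CBP30 samples differed widely, with 3.68 and 1.48 FPKM at 2 µM and 6.41 and 4.68 at 5 µM (log2 −1.14 ± 0.29, adjusted p = 0.0272).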

How the data were processed

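K562 cells were treated for 48 h, and RNA was prepared with a stranded polyadenylated RNA kit and sequenced as single reads. The authors processed the reads with Nextpresso on hg19 and deposited FPKM values, 1 column per sample without pooling. The submitters' processing notes name FastQC, TopHat2 2.0.10, Bowtie 1.0.0, SAMtools 0.1.19, Cufflinks 2.2.1 and Cuffnorm, and the gene annotation is not given in the sources used here. FPKM corrects for library size and transcript length, so a change in a few abundant genes shifts all others.

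Of 12788 genes whose mean reached 0.5 FPKM, 12392 were tested, without 396 whose symbols begin with MIR, SNOR, SCARNA or RNU. The log2 of FPKM + 1 was fitted in R 4.3.3 by limma 3.58.1, using lmFit and a trended eBayes (two-sided), 5 groups in 1 fit with 5 residual degrees of freedom, and tested on simulated data. Errors are standard errors of the fit with n = 2 per group. Python 3.11.15, pandas 2.3.3 and matplotlib 3.10.9 served for tables and figures. Gene positions came from GENCODE on hg19 and promoter windows from RefSeq (GRCh38.p14), matched by symbol.

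Named genes are the 12 largest falls and 12 largest rises among called genes that reached 5 FPKM in either group and did not overlap, a short list with MYC, GATA1, FGF13 and reference genes, and, of each list, up to 6 called members and the 2 most abundant. CREBBP and EP300 are given as the targets of the compounds, and other genes described outside the rule are marked in the text as picked once their values had been seen. Members, lists and tests were chosen with earlier results of these data known. The processing was varied by keeping small RNA genes, a filter at 5 FPKM or none, a pseudocount of 0.1, median centring, quantile normalization, no trend, smaller sets of samples, a replicate block, removal of the trend with transcript length and leaving out samples.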

Additional observations from a re-analysis of the deposited data

Results flagged for a closer look

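LOC283214 and RMRP stood out because they responded differently to the compounds at the same dose. LOC283214 rose by 3.57 on the log2 scale with 2 µM I-CBP112 (limma, adjusted p = 0.000154), while with 2 µM CBP30 it differed from DMSO by 0.042, and the difference between the compounds was −3.52 (adjusted p = 3.78e-05). LOC283214 passed the filter only through the samples of I-CBP112, so these p values are not independent of the filter. RMRP rose by 1.62 with 2 µM I-CBP112 (adjusted p = 0.0246) and differed from DMSO by 0.48 with 2 µM CBP30, a difference between the compounds of −1.14 (adjusted p = 0.0272). Its rise was not called with no filter or with small RNA genes kept. With 5 µM CBP30 RMRP differed from DMSO by 1.41. At 5 µM the order of the compounds was reversed, with both samples of I-CBP112 below both of CBP30.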

How the results depend on the processing

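The counts depend on which samples are in the fit. The genes called with 2 µM I-CBP112 against DMSO were 119 lower and 140 higher. They became 532 and 484 with only the groups compared in the fit, 681 and 578 with only the DMSO and I-CBP112 samples, 884 and 756 without CBP30 2 µM replicate 1, and 79 and 79 with a mean of at least 5 FPKM, where fewer genes are tested. For 5 against 2 µM I-CBP112 (0 lower, 3 higher) these fits gave 8 and 21, 37 and 47, and 65 and 87. No filter gave 1 and 5, and keeping small RNA genes 1 and 7. Of the higher genes, quantile normalization left 6, the replicate block 1, and median centring and eBayes without the trend 0. For CBP30 against I-CBP112 at 2 µM (1304 lower, 1136 higher) the fit of the groups compared gave 54 and 32, and that of DMSO and the 2 µM samples 342 and 227. The cause was not tested.

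Leaving out each sample of the comparison in turn left between 8 and 14 genes lower and between 23 and 31 higher with 2 µM I-CBP112. For 5 against 2 µM it left 0 lower and between 0 and 1 higher, and for CBP30 against I-CBP112 between 302 and 3380 lower and between 197 and 3725 higher, the highest without CBP30 2 µM replicate 2. In these fits 1 group holds a single sample, assumed to vary like the other groups. Of 75 called genes among the 85 followed, 53 to 55 lost their call when a sample was left out and none turned direction. Only 2 genes that were not called turned direction, DGAT2 (between −0.18 and 0.042, the latter without I-CBP112 2 µM replicate 1) and ACTB (between −0.0060 and 0.071, the former without I-CBP112 2 µM replicate 2).

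With all samples kept, 25 of these 75 genes lost their call with no filter, 15 with small RNA genes kept, 15 with the replicate block, 12 with median centring, 6 with eBayes without the trend, 5 with quantile normalization, 3 with a mean of at least 5 FPKM and 3 with a pseudocount of 0.1.

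The replicate number as a block gave 85 lower and 109 higher genes. The deviations of samples that share a number correlated with r from −0.28 to 0.15 between groups (−0.077 for DMSO and 2 µM I-CBP112). With 2 samples per group these values cannot show whether samples of the same number were handled together. The precision rests on 2 samples per group, and the depth behind each value is unknown.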
